A study of Mus musculus with 2 samples.

Results

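Cytosolic ribosomal protein genes were examined on a pair of Affymetrix mouse expression arrays that compared IFN-gamma with IFN-gamma plus adenosine in RAW 264.7 cells, a virus-transformed mouse macrophage-like line. Members were taken by name. A probe set belonged when its single gene symbol in the platform annotation was Rpl or Rps followed by a number, or was Rplp0, Rplp1, Rplp2 or Rpsa. The Rps6k kinases were left out. So was Rps4l, which fits the name pattern but is a pseudogene in RefSeq. This gave 44 genes of the 12393 single-symbol genes on the array, 24 of the large subunit and 20 of the small subunit, read by 95 probe sets. Rplp1, Rpl3, Rpl5 and Rps27a had no probe set of a single symbol and were not analysed here.

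Both groups received IFN-gamma at 1000 U/ml for 4 h, and one of them also received adenosine at 300 uM, a nucleoside sensed by receptors on the cell surface. Fresh medium was given before treatment in both. RNA of 2 experiments was pooled for each treatment, so each treatment is 1 array. No difference below has a replicate check, no test was possible, and no untreated array was analysed here. In such bulk RNA a smaller share of expressing cells and less RNA per cell cannot be told apart.

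Cytosolic ribosomes carry their proteins in a large subunit, which forms peptide bonds, and a small subunit, which reads the messenger RNA. The mRNAs of these proteins are among the most abundant in growing cells, and most begin with a terminal oligopyrimidine (TOP) tract, a cytosine followed by further pyrimidines, through which mTOR and the RNA-binding protein Larp1 control their translation. Control of translation is not measured by the mRNA signals described here.

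A pyrimidine tract stands at or near the annotated start of some of these genes. The windows below are shown because their genes had the highest and the lowest ratio, against genes of like signal, among the bright members of each subunit. Each gives 25 bases before and 25 bases from the RefSeq start (GRCm38.p6), on the strand of the gene, with the motif CTTTCC in capitals. Rpl38 lies at chr11:114668555-114668604 on the plus strand, Rpl13a at chr7:45128721-45128770 on the minus strand, Rps10 at chr17:27635220-27635269 on the minus strand and Rps19 at chr7:24884567-24884616 on the plus strand.
Rpl38: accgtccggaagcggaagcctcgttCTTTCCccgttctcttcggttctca
Rpl13a: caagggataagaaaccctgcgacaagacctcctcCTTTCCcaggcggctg
Rps10: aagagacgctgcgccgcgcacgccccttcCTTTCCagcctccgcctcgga
Rps19: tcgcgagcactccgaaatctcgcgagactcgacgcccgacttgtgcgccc
The motif began at base 1 of the transcript in Rpl38, at base 5 in Rps10 and at base 10 in Rpl13a. In Rps19, whose first of 3 annotated starts is shown, these letters were not in the window.

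RefSeq promoter windows of 300 bases were matched by gene identifier for 39 of the 44 members. CTTTCC, searched on the strand of the gene from 50 bases before to 50 bases from the start, was present for 12 of 39 members (30.8%) and for 5.43% of all 27025 genes with a window. A cytosine at the annotated start followed by 4 bases that were each C or T was present for 8 of 39 members (20.5%) and 3.01% of all genes. CCGGAA, the core recognised by ETS family factors, was present on either strand of the 300 bases for 26 of 39 members (66.7%) and 16.7% of all genes. AAGATGGC, the core bound by YY1, was present on either strand for 3 of 39 members (7.69%) and 3.19% of all genes. The first 2 motifs can overlap. These are matches of letters around annotated starts, which can differ from the starts these cells use.

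As deposited, nearly all ribosomal protein signals were lower on the adenosine array, as were those of most other genes. The 34 bright members, those with a mean log2 signal above 12, ran from 4512 to 10505 with IFN-gamma alone (median 6805) and from 2052 to 5723 with adenosine (median 3452). The deposited log2 ratio, with the adenosine array over the other, had a median of -0.89 in them, against -1.58 for all 6817 measured genes. Of the 41 measured members, 19 were at least 2-fold lower as deposited, where 82.8% of all measured genes were. Only Rpl27a was higher as deposited.

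The 2 arrays were not on a common level. The median gene probe set had a signal of 45.9 with IFN-gamma alone and 15.2 with adenosine. The adenosine array was therefore multiplied by 2.91, which brings the median log2 ratio of probe sets well measured on both arrays to 0, and ratios not called deposited are on that scale. A gene counted as measured when its brighter array reached 45.0, the median of all scaled gene signals, and a dimmer signal under that floor was raised to it. The 10 macrophage markers were all measured. None of the 26 markers of fibroblast, endothelial, epithelial, lymphoid, granulocyte, mast and erythroid cells on the array was, the highest deposited signal among them being 7.8.

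**Figure D1:**
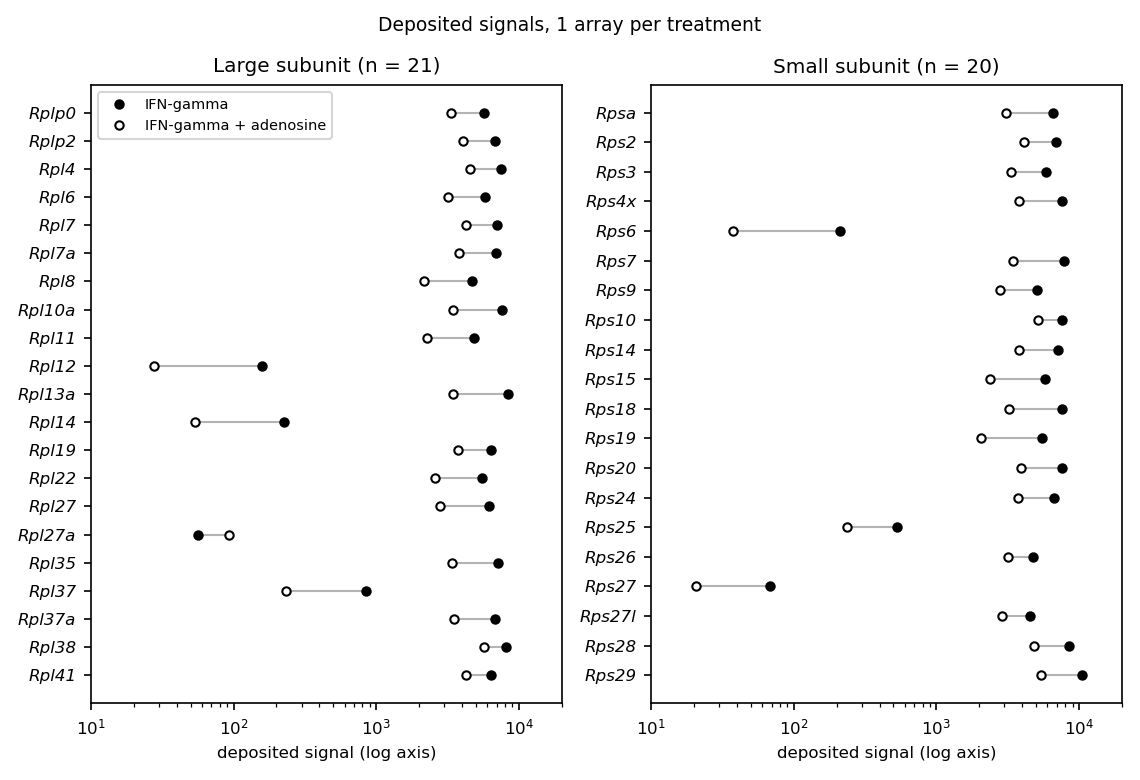
Deposited signal (log axis) of each of the 41 measured ribosomal protein genes, large subunit left and small subunit right, on the IFN-gamma array (filled) and the IFN-gamma plus adenosine array (open). The 34 bright members lie in a narrow band on each array, the 7 others are dim, and Rpl27a alone has its open point to the right.

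After scaling, ribosomal protein genes lay above the array's median in both subunits. The median log2 ratio was 0.58 for the 21 measured genes of the large subunit and 0.58 for the 20 of the small subunit, a difference (large minus small) of -0.0022. For all measured genes it was -0.04. Ratios were above 0 for 36 of the 41 measured members, where 47.5% of all measured genes were above 0. None of the 41 was at least 2-fold lower, where 9.30% of all genes were. Rpl38 and Rpl27a were at least 2-fold higher, where 5.10% of all genes were. The offset was common to most members and under 2-fold in all but these 2.

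The same offset was present in other genes as bright. The 34 bright members had a median log2 ratio of 0.66, from 0.11 to 1.04. The 76 other genes within their range of mean signal had a median of 0.59, from 0.06 to 1.13, and all 76 were above 0. Only members were left out of these, so they held Rps3a1, a ribosomal protein gene outside the naming rule. They also held products of TOP mRNAs, such as Eef1a1, Tpt1, Fau and Pabpc1. Of the 100 genes with the highest mean signal, 33 were members with a median of 0.67 and 67 were other genes with a median of 0.62. The groups overlapped over almost their whole range.

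Against the 200 other genes nearest in mean signal, the median difference of the log2 ratio was 0.21 for the large and 0.24 for the small subunit. Members were above the median of those genes in 32 of 41 cases, where 50.5% of all genes were, and above their 75th percentile in 20 of 41, where 25.5% were. At the top of the signal range such a set of 200 reaches down to dimmer genes. Its median log2 signal was 12.2, against 13.1 for the bright members themselves, and 65 of the 76 other genes of that range were above their own 200 as well. With the 30 nearest genes, a setting added after the data were seen, the reference had a median log2 signal of 12.9. The difference was then 0.08 for the large and -0.09 for the small subunit, and 20 of 41 members were above, where 49.8% of all genes were. That share is near the background, and the members were not set apart from other genes of their own signal by this measure. Members alone were left out of the reference, which can hold Rps3a1 and TOP mRNAs, so the comparison is partly with related genes. Over the 34 bright members, log2 ratio and mean log2 signal had a Pearson r of 0.38, a description over genes that share both arrays.

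**Figure D2:**
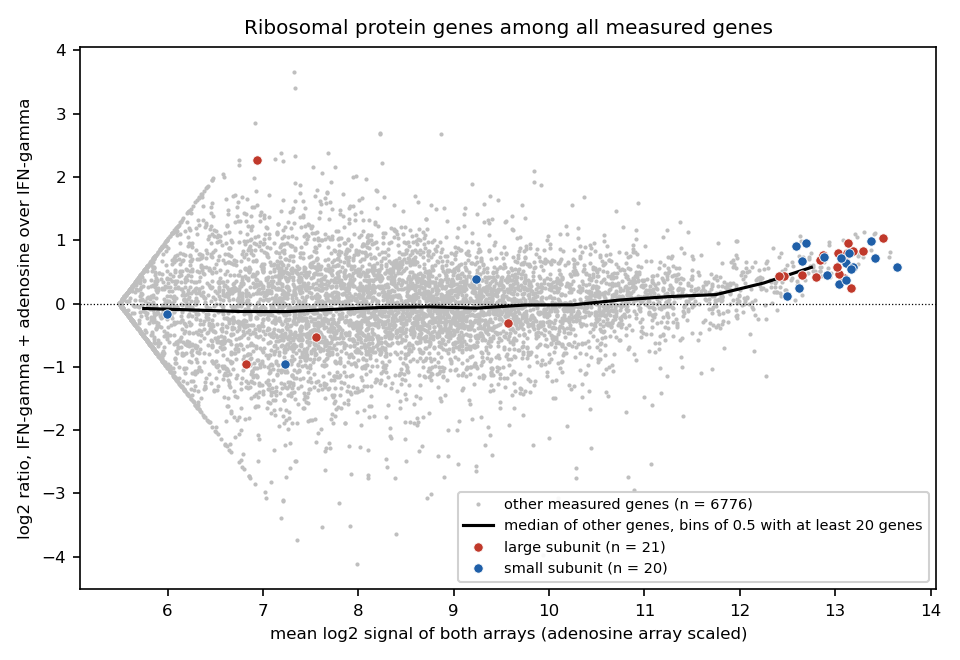
Log2 ratio of IFN-gamma plus adenosine over IFN-gamma against mean log2 signal of both arrays for all 6817 measured genes (grey: other genes; red: large subunit; blue: small subunit; line: median of other genes in bins of 0.5). The line climbs above 0 at the highest signals, where the 34 bright members lie around it, with ratios from 0.11 to 1.04.

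Controls spiked into the hybridisation gave another level. Their 18 probe sets had a median deposited log2 ratio of -0.53. The 4 brightest, of the Cre control, had IFN-gamma array signals from 4788 to 7577, within the range of the bright members, and deposited log2 ratios from -0.51 to -0.27 (median -0.36). The medians of the bright members, -0.89, and of the 76 other genes in their signal range, -0.96, were both below these controls. Scaled to all 18 controls instead of to the genes, the median log2 ratio was -0.44 for the large and -0.43 for the small subunit. Whether ribosomal protein signals were higher or lower with adenosine thus depends on the level taken as unchanged.

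The error available for a single ratio is the scatter between probe sets of one gene. Over 18 members with at least 2 measured probe sets, 55 in all, its SD was 0.40 on the log2 scale. The chosen probe sets of the 34 bright members had an SD of 0.23 between genes. The SD of 0.40 includes dim probe sets. Over the 48 probe sets of 16 members above a mean log2 signal of 10 it was 0.38, with the widest range in Rps24. By these SDs the bright members differed from each other by less than probe sets of one gene did. The sets are unlike, since the 0.23 covers only the brightest probe set of each gene. Rps24 also adds much to the SDs within genes, with a range of 1.94 against 0.87 in Rps10, the next widest. None of the SDs includes the spread between cultures or arrays.

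Rps24, a small subunit protein, shows the scatter most. Its 4 bright probe sets had deposited signals of 6661 and 3758, 5910 and 3561, 5674 and 2007, and 5032 and 791, the IFN-gamma array named first in each pair. Their log2 ratios were 0.72, 0.81, 0.04 and -1.13, the last being the only one of the 78 measured member probe sets that was at least 2-fold lower. Rps18, a protein of the small subunit's head, had ratios of 0.31, 1.11 and 0.87. Probe sets agreed more closely for Rpl41, one of the smallest ribosomal proteins, at 0.96 and 1.06, and for Rps28 at 0.72, 0.58 and 0.59. Of the 78, 66 were above 0 and 5 were at least 2-fold higher.

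Most bright probe sets of ribosomal proteins are not specific to 1 transcript by the manufacturer's suffix, and these genes have many processed pseudogenes of near-identical sequence, so each gene's value is uncertain to that extent. Above a mean log2 signal of 10, 34 member probe sets had the suffix x, which marks probes that match other sequences, with a median log2 ratio of 0.58. The suffix a, which marks variants of one gene, was carried by 25, with a median of 0.69. The 6 with no such suffix, read as unique, had a median of 0.61, from 0.42 to 0.85. With every shared probe set left out, 14 members were measured, 7 in each subunit. The median was then 0.45 for the large subunit and turned to -0.17 for the small one. Rps24 and Rps9 were then read from dim probe sets, with ratios of -0.22 and -0.21, and Rps6, Rps25 and Rps27 were dim already. The value of -0.17 is the ratio of Rps27. The bright small subunit members left, Rps15 at 0.85 and Rpsa at 0.45, were above 0.

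**Figure D3:**
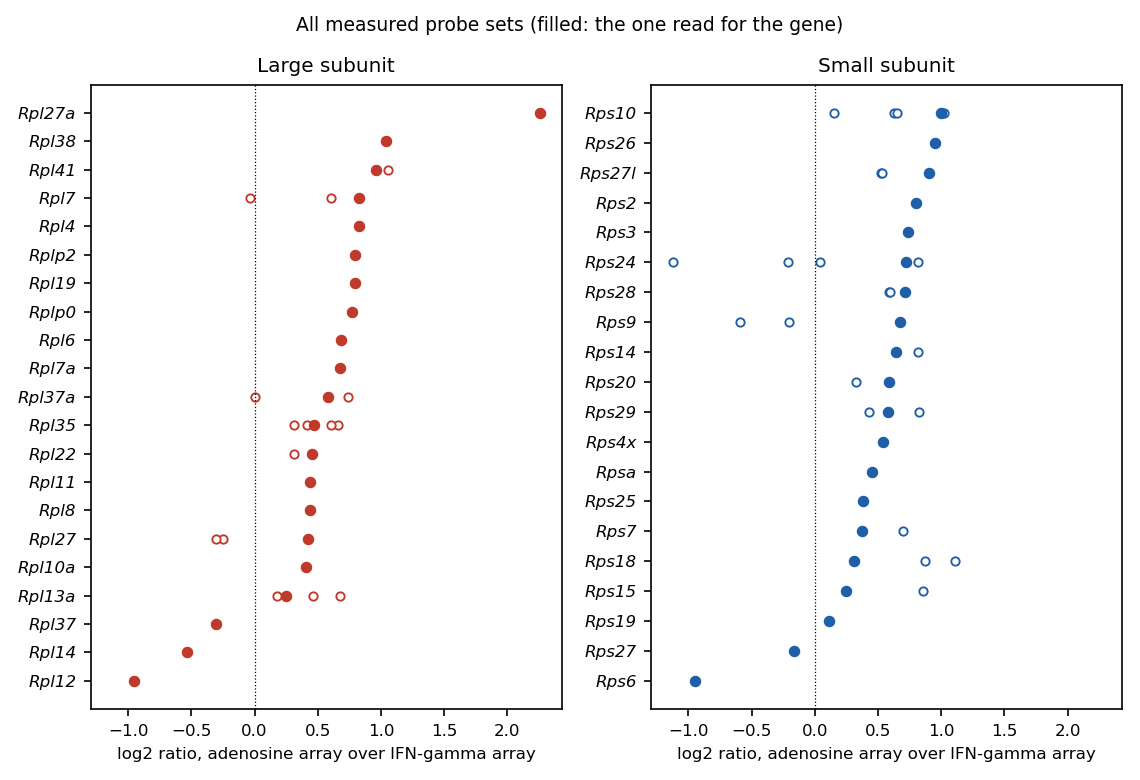
Log2 ratio of every measured probe set of each measured member, large subunit left and small subunit right. Filled points are the probe sets read for the gene and open points the others; the 4 bright probe sets of Rps24 span -1.13 to 0.81.

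In the large subunit, the stalk proteins, which recruit and activate the translation factors that use GTP, had nearly the same ratio. Rplp0 had deposited signals of 5717 with IFN-gamma alone and 3348 with adenosine, the order kept below, and a scaled log2 ratio of 0.77. Rplp2 had 6806 and 4042, and a ratio of 0.79. Both lay above the median of the 30 genes of like signal, Rplp0 by 0.20 and Rplp2 by 0.09.

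Rpl38, which is required for translation of Hox mRNAs in the embryo, had deposited signals of 8103 and 5723 and a log2 ratio of 1.04. It was read by 1 probe set. Its ratio was 0.67 above the 200 and 0.30 above the 30 genes of like signal. Rpl41 had signals of 6431 and 4298, 0.26 above the 30 genes. Rpl7, at 6983 and 4243, and Rpl4, at 7549 and 4582, had ratios of 0.82 each and were within 0.12 of the 30 genes. These were the highest bright members of the large subunit against the 200 genes. For Rpl7 that rests on the probe set read for the gene, and its other probe sets had ratios of 0.60 and -0.03.

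Rpl13a, which leaves the ribosome in IFN-gamma-treated monocytes as part of the GAIT complex that silences inflammatory mRNAs, was the lowest bright member of the large subunit. Its deposited signals were 8450 and 3440, and its log2 ratio of 0.25 was 0.46 below the 30 genes of like signal. Its other 3 probe sets had ratios of 0.68, 0.46 and 0.18. Rpl10a had 7564 and 3436, a ratio of 0.40, 0.26 below the 30 genes. Rpl11, which binds Mdm2 when ribosome assembly fails, had 4865 and 2263, a ratio of 0.44, 0.08 above them.

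The dim members of the large subunit ran otherwise. Rpl12, part of the stalk base, had deposited signals of 157.5 and 27.9 and a log2 ratio of -0.95. Rpl14 had 225.6 and 53.5, a ratio of -0.53, and Rpl37 had 845.8 and 234.5, a ratio of -0.31. Rpl27a went the other way, from 56.2 to 92.4, a ratio of 2.26. With the floor at the 67th percentile of signals it was 0.68, which ends its 2-fold call and leaves Rpl38 alone. All 4 had mean log2 signals of at most 9.57.

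In the small subunit, Rps10 was highest among the bright members, with deposited signals of 7550 and 5165 and a log2 ratio of 0.996, just under 2-fold. Its other measured probe sets had ratios from 0.15 to 1.02. Rps26, which takes part in maturation of the small subunit, had 4761 and 3157, a ratio of 0.95. Rps27l, a paralogue of Rps27 induced by p53, had 4512 and 2890, a ratio of 0.90, but its other probe sets gave 0.52 and 0.53. By the probe set read for each, these 3 members were above the 30 genes of like signal by 0.25, 0.37 and 0.41. Rps2, at 6870 and 4103, had a ratio of 0.80, 0.09 above them.

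Rps19, which is mutated in Diamond-Blackfan anaemia, was the lowest bright member, with deposited signals of 5536 and 2052 and a log2 ratio of 0.11, 0.25 below the 30 genes of like signal. Rps15 had 5787 and 2356, a ratio of 0.25, 0.33 below, but its other probe set gave 0.85. Rps18, at 7588 and 3219, was 0.34 below by the probe set read for the gene. Rps3, which also binds the NF-kappaB subunit p65, had 5839 and 3345, a ratio of 0.74, 0.16 above. Rpsa, also known as the laminin receptor, had 6585 and 3092, a ratio of 0.45, 0.13 below. Rps4x had 7597 and 3796, a ratio of 0.54, 0.16 below.

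Rps6, the small subunit protein phosphorylated by S6 kinases, was read by a dim probe set, with deposited signals of 209.4 and 37.2 and a log2 ratio of -0.95. With the floor at the 67th percentile it was -0.32. Rps27 had 67.8 and 20.7, a ratio of -0.17, and Rps25 had 527.3 and 236.1, a ratio of 0.38. Rps27 and its paralogue Rps27l, above, were thus read at very different signals, and their ratios cannot be set against each other as levels.

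Across both subunits, 7 measured members were dim, with mean log2 signals of at most 9.57, and their median log2 ratio was -0.31. No member lay between 9.57 and 12.4. Below the floor on both arrays were Rpl39, at 30.1 and 15.3, and the paralogues Rpl39l, at 0.9 and 0.1, and Rpl3l, at 6.0 and 3.3. For 8 of these 10 dim or unmeasured members the same symbol also stood in a brighter probe set that carried several symbols.

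Those several-symbol probe sets were kept out of the gene values. In all, 102 of them carried a symbol of the member pattern and 90 were measured, with a median log2 ratio of 0.54, from -1.34 to 1.40, and 78 above 0. Of the 90, 4 were at least 2-fold lower and 2 higher, where none of the 41 members was lower. The 71 with a mean log2 signal above 12 had a median of 0.61, all above 0.

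Genes just outside the naming rule had different ratios. Rps3a1, the mouse gene for the small subunit protein S3a, had deposited signals of 7757 and 4430 and a log2 ratio of 0.74. Rpl22l1, a paralogue of Rpl22, had 3203 and 1195, a ratio of 0.12. Rpl7l1 had 1015 and 165.5, a ratio of -1.07.

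Other genes of protein synthesis were read from lists. Of 18 translation factors and other products of TOP mRNAs, 15 were found among the single-symbol genes of the array, and all 15 were measured. Their median log2 ratio was 0.38. At least 2-fold higher were 2 of them, where 5.10% of all genes were, and none was lower, where 9.30% were. The 2 higher were Eef1a1, which brings aminoacyl-tRNA to the ribosome, at 7410 and 5513 (ratio 1.12), and Tpt1, at 7406 and 5451 (1.10). They were 0.38 and 0.36 above the 30 genes of like signal. Of the 76 other genes in the bright members' signal range, which include both, 7 were at least 2-fold higher and none was lower. The lowest against genes of like signal were the initiation factor subunit Eif3e, at 3626 and 1152 (-0.11), and Hnrnpa1, at 603.5 and 181.5 (-0.19).

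Of 40 genes of ribosome assembly and rRNA synthesis, 37 were found among the single-symbol genes of the array, and all 37 were measured. Their median log2 ratio was 0.24. Of these, 1 was at least 2-fold higher, where 5.10% of all genes were, and 1 lower, where 9.30% were. Both shares were below the background. Both are RNA polymerase I subunits. Polr1d, shared with RNA polymerase III, had 1616 and 1239 (1.16), and Polr1a, the largest subunit, had 240.1 and 34.6 (-1.25). Nop56, a box C/D snoRNP protein, had 1213 and 717.2 (0.78), and Wdr12 had 1061 and 204.4 (-0.83).

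Of 17 S6 kinases and regulators of TOP mRNAs, 10 were found among the single-symbol genes of the array. Of these, 9 were measured and Myc was below the floor. The 9 had a median log2 ratio of -0.63. At least 2-fold lower were 2 of the 9, where 9.30% of all genes were, and none was higher, where 5.10% were. Another 3 were above 0 and above the 75th percentile of genes of like signal. Mtor, the kinase that drives TOP mRNA translation, had 285.0 and 32.6 (-1.58), and Rps6ka3, an S6 kinase of the RSK family, had 622.9 and 95.7 (-1.16). Highest against genes of like signal were the inhibitors of mTOR signalling Tsc2, at 99.5 and 62.9 (0.88), and Tsc1, at 26.1 and 22.4 (0.54, with the IFN-gamma signal raised to the floor). Larp1 had 1414 and 255.7 (-0.92).

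Mitochondrial ribosomal proteins, which serve a separate ribosome, lay near the values of all genes. Their 74 measured genes had a median log2 ratio of -0.07, with 31 above 0 (41.9%, against 47.5% of all genes), at a median log2 signal of 9.45, well under that of the cytosolic members. Mrps24 was at least 2-fold higher (1.18), and Mrpl17, Mrps2, Mrpl55 and Mrpl41 were at least 2-fold lower, from -1.49 to -1.04, where 5.10% and 9.30% of all genes were. The difference in signal and the difference in family cannot be told apart between these groups. Among macrophage markers, Lyz2 (6444 and 4740, ratio 1.10) and Ctsd (3126 and 1762, 0.72) were highest against genes of like signal, and Fcgr3 (2624 and 484.2, -0.90) and Csf1r (5552 and 1776, -0.10) lowest.

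**Figure D4:**
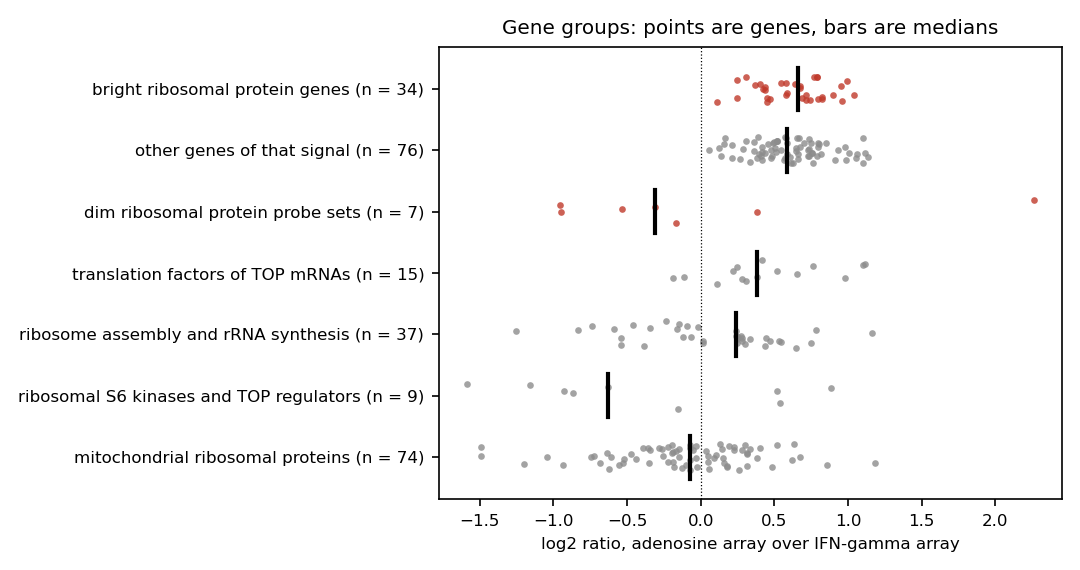
Log2 ratio of each measured gene (points) and median (bar) for bright and dim ribosomal protein members (red) and for other genes of the bright members' signal, gene lists and mitochondrial ribosomal proteins (grey). The bright members, median 0.66, and the 76 other genes of their signal, median 0.59, cover nearly the same range.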

How the data were processed

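The authors deposited 1 linear intensity for each of 22690 probe sets on each array. Per the submitters' processing notes GCOS was used; for the signal algorithm and scaling target, nothing is given in the sources used here. The deposited intensity values were not on a common level, so the adenosine array was scaled by median centring (log2 shift -1.54). Each gene was read from its single-symbol probe set of highest mean. The floor was the 50th percentile of scaled signals. Ratios were set against the 200 measured non-member genes nearest in mean log2 signal. Python 3.11.15, pandas 2.3.3 and statsmodels 0.14.6 were used, and the calculation was tested on simulated arrays.

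The members and gene lists were chosen with earlier results of these data known. Genes were named by role, by having a paralogue, as the 5 highest and 5 lowest measured members of each subunit against genes of like signal, by lying below the floor, and as the 2 highest and 2 lowest of each list. Rpl7l1, Rpl22l1, Rps3a1, Rps9, Rps24, Rps28, Rpl27, Larp1 and the mitochondrial genes were named after their values were seen.

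Alternatives were other scalings (none, quantile, loess, spiked-in controls), a pseudocount of 16, a floor at the 33rd or 67th percentile, the mean of all probe sets, leaving out shared probe sets, 100 or 400 genes of like signal, likeness on the IFN-gamma array and a 1.5-fold threshold. Added after seeing the data were trimmed mean scaling, 30 genes of like signal, bright members alone and several-symbol probe sets. With 1 array per treatment, the number of arrays limits the precision.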

Additional observations from a re-analysis of the deposited data

How the results depend on the processing

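The scaling sets the level of every ratio. As deposited, with the floor and the probe sets chosen again and 42 members measured, median log2 ratios were -0.92 (large subunit) and -0.98 (small), with 20 members at least 2-fold lower and 0 higher; of the 41 members measured in both, each except Rpl27a was below 0, Rpl38 at -0.50. Scaled to spiked-in controls, 5 were lower and 1 higher, at medians of -0.44 and -0.43. Quantile scaling gave 0.017 and -0.13 and loess scaling 0.024 and 0.017, each with 1 member 2-fold higher; with quantile scaling 20 members were above genes of like signal. A floor at the 67th percentile and the bright members alone also left 1 member higher, Rpl38; under that floor Rpl27a was at 0.68 and Rps6 at -0.32. Without shared probe sets only 14 members were measured, with 1 higher and 9 above genes of like signal. The small subunit median was then -0.17, the ratio of the dim Rps27. At 1.5-fold, 2 were lower and 19 higher. With 30 genes of like signal, 20 were above; with 100 genes 27, at median differences of 0.06 (large) and 0.09 (small), and with 400 genes 35, at 0.35 and 0.39. With several-symbol probe sets added, 4 of 131 were lower, 4 higher and 100 above. The mean of all measured probe sets moved Rps24 to 0.05, Rps18 to 0.76, Rpl27 to -0.04 and Rps9 to -0.04, with medians of 0.46 and 0.55. The cause of these shifts was not tested. The floor at the 33rd percentile, the pseudocount and trimmed mean scaling moved the log2 ratio of none of the 41 members by more than the probe set SD of 0.40. No paired analysis was possible because only 1 array represents a treatment. Dim members have the fewest signal units above the floor.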
